A study of Mus musculus with 6 samples.

Results

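Cells in which the long noncoding RNA lncPim1 was overexpressed and cells in which it was knocked down were compared jointly with control cells, to describe what the manipulated cells shared whichever way lncPim1 was moved. A gene counted as shared when all 4 manipulated libraries lay above both control libraries, or all 4 lay below both. Of 10721 genes whose mean reached 1 FPKM across the 6 libraries, 3150 met this rule, 1132 above and 2018 below, out of 21878 rows in the table. FPKM scales a gene's fragments to the length of its transcript and to the mapped fragments of the library.

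The cells were Neuro-2a, an established mouse neuroblastoma line of sympathetic lineage that can be driven toward a neuron-like shape. There were 3 groups of 2 libraries, labelled wild type (here control), overexpression of lncPim1, and RNA interference against lncPim1 (here knockdown). The labels name no empty vector and no scrambled RNA, so the delivery of a construct or RNA and the change in lncPim1 cannot be told apart in what both manipulated groups share. They name no vector, promoter, dose or time either, nor do they tie a library to its own culture. The p-values therefore cover the spread of these libraries alone, which may be technical. lncPim1 was not analysed here, since 0 rows are named for it, and whether its level followed the labels was not tested.

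Pim1, whose name lncPim1 carries, encodes a serine/threonine kinase that is switched on by cytokine signalling and favours survival and growth. Interferon-induced genes encode antiviral proteins and chemokines, and many of them carry a response element for interferon regulatory factors or STAT proteins near their start. Immediate early genes encode transcription factors and feedback inhibitors that rise within minutes of a signal, without new protein synthesis. Neuroblastoma cells express neuronal tubulins, nicotinic receptors and synaptic vesicle proteins, and these genes are commonly followed when such cells differentiate.

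Promoter sequences are shown for the genes ranked highest by the size of the change shared by both manipulated groups whose window holds a searched motif, 2 above and 2 below the controls. Each is the RefSeq window of 300 bases on build GRCm38.p6, from 250 bases before the annotated start to 50 bases from the start on, written 5′ to 3′ on the gene's strand, with motif matches in capitals. Alpl lies at chr4:137796335-137796634 on the minus strand, Isg15 at chr4:156200769-156201068 on the minus strand, Kcnab1 at chr3:64948962-64949261 on the plus strand and Bex4 at chrX:136138746-136139045 on the plus strand. The Kcnab1 window belongs to a RefSeq start that lies upstream of the span GENCODE gives that gene. Alpl and Kcnab1 have other RefSeq windows, not shown, that also hold searched motifs.
Alpl: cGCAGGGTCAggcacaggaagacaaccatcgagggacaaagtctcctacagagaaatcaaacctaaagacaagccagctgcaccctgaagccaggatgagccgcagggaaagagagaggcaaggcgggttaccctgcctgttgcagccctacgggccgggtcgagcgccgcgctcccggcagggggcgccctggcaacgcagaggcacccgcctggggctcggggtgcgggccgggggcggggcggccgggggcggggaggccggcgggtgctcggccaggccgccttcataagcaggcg
Isg15: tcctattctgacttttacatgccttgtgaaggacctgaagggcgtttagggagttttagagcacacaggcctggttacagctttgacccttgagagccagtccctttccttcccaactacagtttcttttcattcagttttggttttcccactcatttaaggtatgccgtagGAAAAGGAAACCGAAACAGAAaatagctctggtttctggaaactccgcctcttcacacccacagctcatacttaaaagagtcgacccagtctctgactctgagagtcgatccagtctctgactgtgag
Kcnab1: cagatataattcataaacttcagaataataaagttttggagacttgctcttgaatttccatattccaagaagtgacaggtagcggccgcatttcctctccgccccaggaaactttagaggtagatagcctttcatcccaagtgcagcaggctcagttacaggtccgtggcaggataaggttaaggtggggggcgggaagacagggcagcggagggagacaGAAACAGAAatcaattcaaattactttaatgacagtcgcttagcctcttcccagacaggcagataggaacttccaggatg
Bex4: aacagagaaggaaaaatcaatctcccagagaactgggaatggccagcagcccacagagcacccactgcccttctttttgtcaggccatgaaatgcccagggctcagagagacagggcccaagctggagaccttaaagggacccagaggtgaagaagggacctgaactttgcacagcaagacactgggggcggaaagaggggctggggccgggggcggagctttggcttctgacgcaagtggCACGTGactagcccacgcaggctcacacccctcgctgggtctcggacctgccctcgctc
In Alpl the capitals are the antioxidant response core TGACNNNGC, read on the opposite strand from -249 relative to the start. In Isg15 and Kcnab1 they are the interferon response motif GAAANNGAA, from -78 and -30, and in Isg15 several matches overlap. In Bex4 they are the E-box CACGTG, from -9. The windows of Timp1 and Reg3b, the genes ranked first in each direction, held none of the 6 motifs searched. A match describes these letters only, and binding was not measured.

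Summed FPKM ran from 272528 to 305463 per library, and 15120 to 15573 rows were above 0. Absolute depth is unknown. Spearman correlations over the tested genes were 0.995 to 0.997 within groups, 0.992 to 0.994 between control and overexpression libraries and 0.976 to 0.984 between knockdown libraries and the rest. The first principal component, with 70.1% of the variance, separated the knockdown libraries from the other 4. On the second, with 13.4%, the controls stood at 7.51 and 5.96, the overexpression libraries at -9.34 and -5.93, and the knockdown libraries between them at 2.51 and -0.717. The markers of the line were present in every library, with the noradrenergic regulator gene Phox2a at 147 to 237 FPKM and Hand2 at 68.3 to 111 FPKM. Th, the rate-limiting enzyme gene of catecholamine synthesis, was low at 4.67 to 11.9 FPKM, and Dbh, the gene of a later enzyme, was at 0.155 to 0.494 FPKM.

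Of the tested genes, 10.6% had all 4 manipulated libraries above both controls and 18.8% had all 4 below. In a linear model (limma) with a mean for each of the 3 groups, the average of both manipulated groups minus control was called, at a Benjamini-Hochberg adjusted p under 0.05, higher for 923 genes (8.61%) and lower for 1944 (18.1%). Of the genes above both controls 620 were also called higher, and of those below 1351 were called lower. Both statements rest on the same values, so the call adds a size and an error and is no second line of evidence. Another 896 genes were called although their libraries overlapped the controls, and 1179 of the 3150 shared genes were not called.

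Many shared changes were of unequal size in the 2 manipulated groups, at a share near that of all tested genes. Against control, 165 genes (1.54%) were called under overexpression and 4948 (46.2%) under knockdown. These comparisons use the same control libraries, so their overlap is not given as a result. Among the 1971 shared genes that were called, the median absolute log2 fold change was 0.16 under overexpression and 0.37 under knockdown, beside 0.08 and 0.18 over all tested genes, which describes genes picked by these same values. All log2 fold changes are on the log2(FPKM + 1) scale, which understates changes of low genes. The difference between overexpression and knockdown, which uses no control library, was called for 4345 of all tested genes (40.5%). It was called for 1226 of the 3150 shared genes (38.9%), near that share. Knockdown lay further from control than overexpression in 1188 of these 1226 and overexpression further in 38. Over all 4345 genes called between the groups, these counts were 3933 and 412.

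When the 4 manipulated libraries were instead fitted as 1 group, so that the distance between overexpression and knockdown entered the error, 2 genes were called higher, Alpl and Cnn2, and 2 lower, Reg3b and Bex4 (limma, adjusted p = 0.0416, 0.0348, 0.0348 and 0.0416). Reg3b passed the filter on low values through its control libraries alone, so its call was favoured by the choice of tested rows. In that fit 1338 genes had an unadjusted p under 0.05. The counts also depend on the controls: without control 1 the average of the groups was called higher for 242 genes and lower for 560, and without control 2 for 446 and 658. With each library scaled by its median log ratio, the counts were 1195 and 1349, so that the higher share of calls went from 32.2% to 47.0%, and quantile normalization gave 48.0% (1045 higher and 1130 lower).

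Among genes that rose in both manipulated groups were secreted proteins and proteins of the matrix, an interferon-induced modifier and chemokine, an actin-binding protein and a neuropeptide. In RNA from bulk cells, more cells expressing a gene and more RNA per cell cannot be told apart. The 15 named genes above the controls, ranked by the smaller of their changes in the 2 groups, had a smaller change of 0.56 to 0.84 on the log2 scale. All 15 were called under knockdown and 11 under overexpression, and 5 were called different between the groups. Over all tested genes these shares were 46.2%, 1.54% and 40.5%. The ranking picked called genes with large changes in both groups, so calls against control are favoured by the choice. Alpl, which encodes the tissue-nonspecific alkaline phosphatase, read 1.75 and 1.95 FPKM in control, 3.79 and 4.29 under overexpression and 4.58 and 4.08 under knockdown. Its 4 manipulated libraries all lay above both controls and overlapped between the groups. Its log2 fold changes were 0.82 ± 0.09 (± SE) under overexpression (limma, adjusted p = 0.00585) and 0.90 ± 0.09 under knockdown (1.86e-04), and the difference between the groups was not called (adjusted p = 0.481). Alpl spans 137741733 to 137796384 on the minus strand of chromosome 4 (GRCm38).

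Cnn2, which encodes the actin-binding protein calponin 2, read 10.6 and 10.4 FPKM in control, 17.5 and 17.8 under overexpression and 18.8 and 17.7 under knockdown. It rose by 0.69 ± 0.05 and 0.74 ± 0.05 in the 2 groups (limma, adjusted p = 0.00164 and 9.57e-05), with no call between them (0.515). Isg15, an interferon-induced ubiquitin-like modifier, read 8.50 and 8.47 FPKM in control, 16.1 and 16.8 under overexpression and 17.1 and 13.8 under knockdown, and the lowest manipulated library lay well above the controls, which were nearly equal. Its changes were 0.88 ± 0.09 and 0.79 ± 0.09 (limma, adjusted p = 0.0056 and 3.23e-04). The chemokine gene Cxcl10, also induced by interferon, read 9.93 and 9.08 FPKM in control, 15.9 and 16.8 under overexpression and 15.7 and 12.2 under knockdown, and the exons of Art3 overlap it on the opposite strand. Cxcl10 rose by 0.72 ± 0.10 under overexpression (limma, adjusted p = 0.0177) and 0.50 ± 0.10 under knockdown (0.00494). Npy, the gene of neuropeptide Y, a transmitter of sympathetic neurons, read 1.90 and 1.66 FPKM in control, 3.94 and 4.28 under overexpression and 3.45 and 3.65 under knockdown. Here both overexpression libraries were above both knockdown libraries, a difference that was not called (limma, adjusted p = 0.137).

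Timp1, an inhibitor of matrix metalloproteinases, read 2.76 and 3.61 FPKM in control, 6.61 and 6.31 under overexpression and 11.8 and 11.5 under knockdown, and the 3 groups did not overlap. Its rise of 1.60 ± 0.09 under knockdown was larger than that of 0.84 ± 0.09 under overexpression (limma, difference -0.76 ± 0.09, adjusted p = 7.33e-04). Plekhg1, a gene for a guanine nucleotide exchange factor, had the same order, at 2.39 and 2.22 FPKM in control, 4.65 and 4.75 under overexpression and 8.60 and 8.45 under knockdown (difference -0.74 ± 0.07, adjusted p = 3.12e-04). In 2 of the 5 named genes called different between the groups, the order was the other way. Lgals7, the gene of the epithelial lectin galectin-7, read 0.473 and 0.292 FPKM in control, 3.98 and 4.29 under overexpression and 0.932 and 1.56 under knockdown, and Fkbp10, which encodes a collagen-folding isomerase, read 0.801 and 0.648 FPKM in control, 3.16 and 2.81 under overexpression and 1.59 and 1.81 under knockdown. Their overexpression libraries were the highest and the groups differed (limma, adjusted p = 5.89e-04 and 0.00261). Both genes read under 1 FPKM in both controls and passed the filter through the manipulated libraries, Lgals7 mainly through overexpression. The choice of tested rows therefore favoured their calls. Exons of Nt5c3b overlap Fkbp10 on the opposite strand, and no source used here says whether reads were counted by strand.

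The serpin gene Serpinf1, which encodes pigment epithelium-derived factor, read 0.673 and 1.09 FPKM in control, 2.36 and 1.99 under overexpression and 3.06 and 2.32 under knockdown. F3, the gene of tissue factor, which starts coagulation, read 3.90 and 4.92 FPKM in control, 7.69 and 6.98 under overexpression and 8.995 and 7.96 under knockdown, and the matrix metalloproteinase gene Mmp9 read 2.03 and 2.91 FPKM in control, 4.70 and 3.95 under overexpression and 4.63 and 5.19 under knockdown. Lmo2, a LIM-domain transcriptional adaptor gene, read 3.32 and 4.22 FPKM in control, 6.11 and 6.02 under overexpression and 7.38 and 7.66 under knockdown. In these 4 genes the lowest manipulated library stood above the higher control, and the smaller change ran from 0.57 to 0.76. Mmp9 was called under knockdown (limma, adjusted p = 0.00155) and missed the threshold under overexpression (0.0525). Lcn2, the gene of the iron-siderophore carrier lipocalin 2, read 14.2 and 20.5 FPKM in control, 32.1 and 21.3 under overexpression and 32.3 and 45.6 under knockdown, and its lowest manipulated library stood just above control 2. Car6, a secreted carbonic anhydrase gene, read 4.55 and 6.12 FPKM in control, 11.3 and 7.46 under overexpression and 7.30 and 10.5 under knockdown. The calls of Lcn2, Car6 and the histone gene Hist2h2bb were lost without control 1 and without a filter on low values. Hist2h2bb shares near-identical copies with other histone genes, so its reads are uncertain. Serpinf1 and Hist2h2bb had control means of 0.879 and 0.548 FPKM and passed the filter through the manipulated libraries, which favoured their calls.

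**Figure D1:**
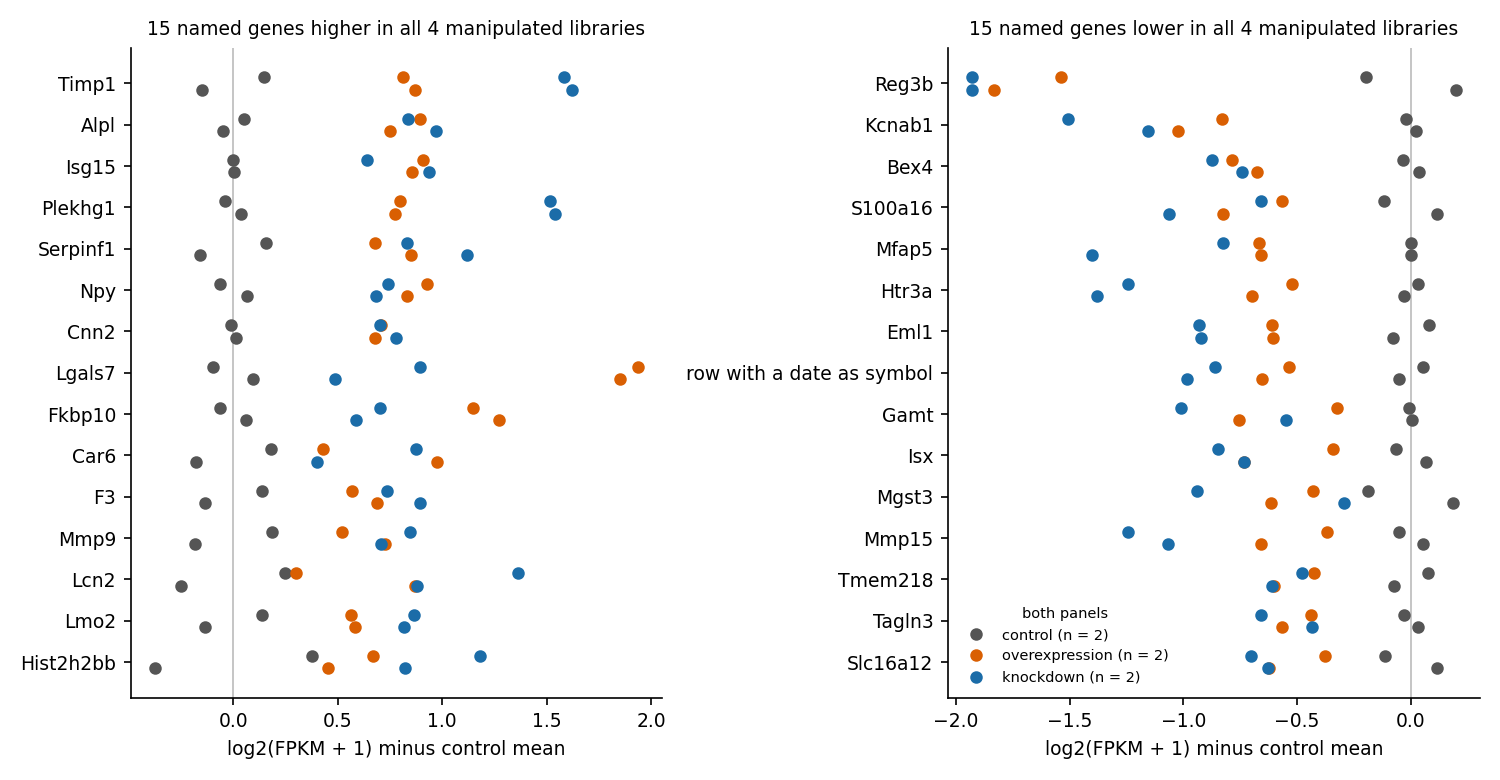
Each point is 1 library of a gene, plotted as log2(FPKM + 1) minus the mean of the 2 control libraries, for the 15 named genes above (left) and below (right) the controls. The 4 manipulated libraries of every gene lie on 1 side of both controls, with Alpl and Cnn2 displaced by like amounts in both groups and Timp1 and Plekhg1 further displaced under knockdown.

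Named genes below both controls in all 4 manipulated libraries included a potassium channel subunit, a serotonin-gated channel, small proteins of neuronal cells and a matrix protein. The 15 named genes below the controls had a smaller change of 0.50 to 1.69 on the log2 scale. All 15 were called under knockdown, 9 under overexpression and 5 between the groups, beside 46.2%, 1.54% and 40.5% of all tested genes. Here, too, the ranking favoured calls against control. Kcnab1, which encodes a beta subunit of voltage-gated potassium channels, read 21.2 and 20.5 FPKM in control, 9.72 and 11.3 under overexpression and 8.79 and 6.68 under knockdown. The controls were nearly equal and all 4 manipulated libraries lay far below them, with changes of -0.93 ± 0.11 and -1.33 ± 0.11 (limma, adjusted p = 0.00988 and 1.25e-04). Exons of A330015K06Rik overlap Kcnab1 on the opposite strand. Bex4, a brain-expressed X-linked gene, read 8.89 and 8.43 FPKM in control, 5.04 and 4.60 under overexpression and 4.77 and 4.26 under knockdown. Its log2 fold changes were -0.73 ± 0.08 and -0.81 ± 0.08, and the difference of 0.08 ± 0.08 between them was not called (limma, adjusted p = 0.436). Bex4 spans 136138996 to 136140443 on the plus strand of chromosome X (GRCm38).

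Htr3a, which encodes a subunit of the serotonin-gated cation channel, read 19.8 and 20.7 FPKM in control, 12.1 and 13.8 under overexpression and 7.17 and 7.96 under knockdown, so that the groups were ordered control, overexpression, knockdown without overlap. Its log2 fold change was -0.61 ± 0.08 under overexpression and -1.31 ± 0.08 under knockdown, and the groups differed (limma, adjusted p = 4.73e-04). Mmp15, a membrane-anchored matrix metalloproteinase gene, read 57.8 and 53.5 FPKM in control, 34.8 and 42.8 under overexpression and 26.03 and 22.9 under knockdown and had the same order (adjusted p = 0.00161 between the groups). Eml1, which encodes a microtubule-associated protein, read 3.52 and 4.05 FPKM in control, 2.14 and 2.13 under overexpression and 1.52 and 1.51 under knockdown, and exons of Gm16596 overlap it on the opposite strand. Tagln3, a gene for a neuronal calponin-family protein, read 20.6 and 19.7 FPKM in control, 13.3 and 14.6 under overexpression and 14.7 and 12.4 under knockdown, and Tmem218, which encodes a membrane protein of the cilium, read 3.46 and 3.95 FPKM in control, 2.10 and 2.50 under overexpression and 2.08 and 2.37 under knockdown. Tagln3 and Tmem218 fell, with differences between the groups of 0.04 ± 0.08 and 0.03 ± 0.10 (limma, adjusted p = 0.697 and 0.805).

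Reg3b, which encodes an antibacterial lectin of the gut, ranked first by its shared fall. It read 3.37 and 2.32 FPKM in control and 0.0677 and 0.310 under overexpression, and was listed at 0 in both knockdown libraries, so no fold is given for knockdown. Only its control libraries were above 1 FPKM, and a gene that passes the filter through the group where it is high has to differ, so its call supports nothing. It belongs to 47 digestive-tract transcripts whose summed FPKM was 99.1 and 93.4 in control, 91.1 and 113 under overexpression and 49.8 and 50.5 under knockdown. Of 21 tested members of that list, 14 were called lower in the average of both groups, beside 18.1% of all tested genes. Only 1 had all 4 manipulated libraries below both controls, beside 18.8% of all tested genes. At a filter of 5 FPKM only 3 members were still tested, and 0 of them were called lower. The lower calls were fewer with either control left out. The list's median in the average of both groups was -0.58, with -0.51 without control 1 and -0.54 without control 2. The list's median was 0.04 under overexpression and -1.39 under knockdown, so the list was lower in the knockdown libraries. The part of other cells or sequences in these transcripts was not tested.

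S100a16, a calcium-binding protein gene, read 3.71 and 3.01 FPKM in control, 1.45 and 1.93 under overexpression and 1.08 and 1.75 under knockdown, Mfap5, a gene for a microfibril-associated matrix protein, read 3.14 and 3.14 FPKM in control, 1.62 and 1.60 under overexpression and 0.566 and 1.34 under knockdown, and Isx, an intestinal homeobox gene, read 1.81 and 1.56 FPKM in control, 0.615 and 1.12 under overexpression and 0.613 and 0.494 under knockdown. Gamt, whose enzyme makes creatine, read 6.46 and 6.40 FPKM in control, 3.40 and 4.94 under overexpression and 4.08 and 2.69 under knockdown. Slc16a12, a creatine transporter gene, read 6.13 and 5.08 FPKM in control, 3.28 and 4.07 under overexpression and 3.27 and 3.04 under knockdown. All 5 lay below both controls in each manipulated library. Isx passed the filter on low values only through its control libraries, as did Mgst3 (below), so the choice of tested rows favoured their calls. The call of S100a16 was lost without control 1, and that of Gamt without control 1, without control 2 and without a filter. Mgst3, a glutathione transferase gene, read 2.07 and 1.37 FPKM in control, 0.763 and 1.01 under overexpression and 1.21 and 0.406 under knockdown, and its call (limma, adjusted p = 0.0455) was kept under 4 of 14 alternatives. A row labelled 3-Sep, a date in place of a symbol, read 4.67 and 5.10 FPKM in control, 2.74 and 3.05 under overexpression and 1.97 and 2.24 under knockdown and is left without a gene name.

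**Figure D2:**
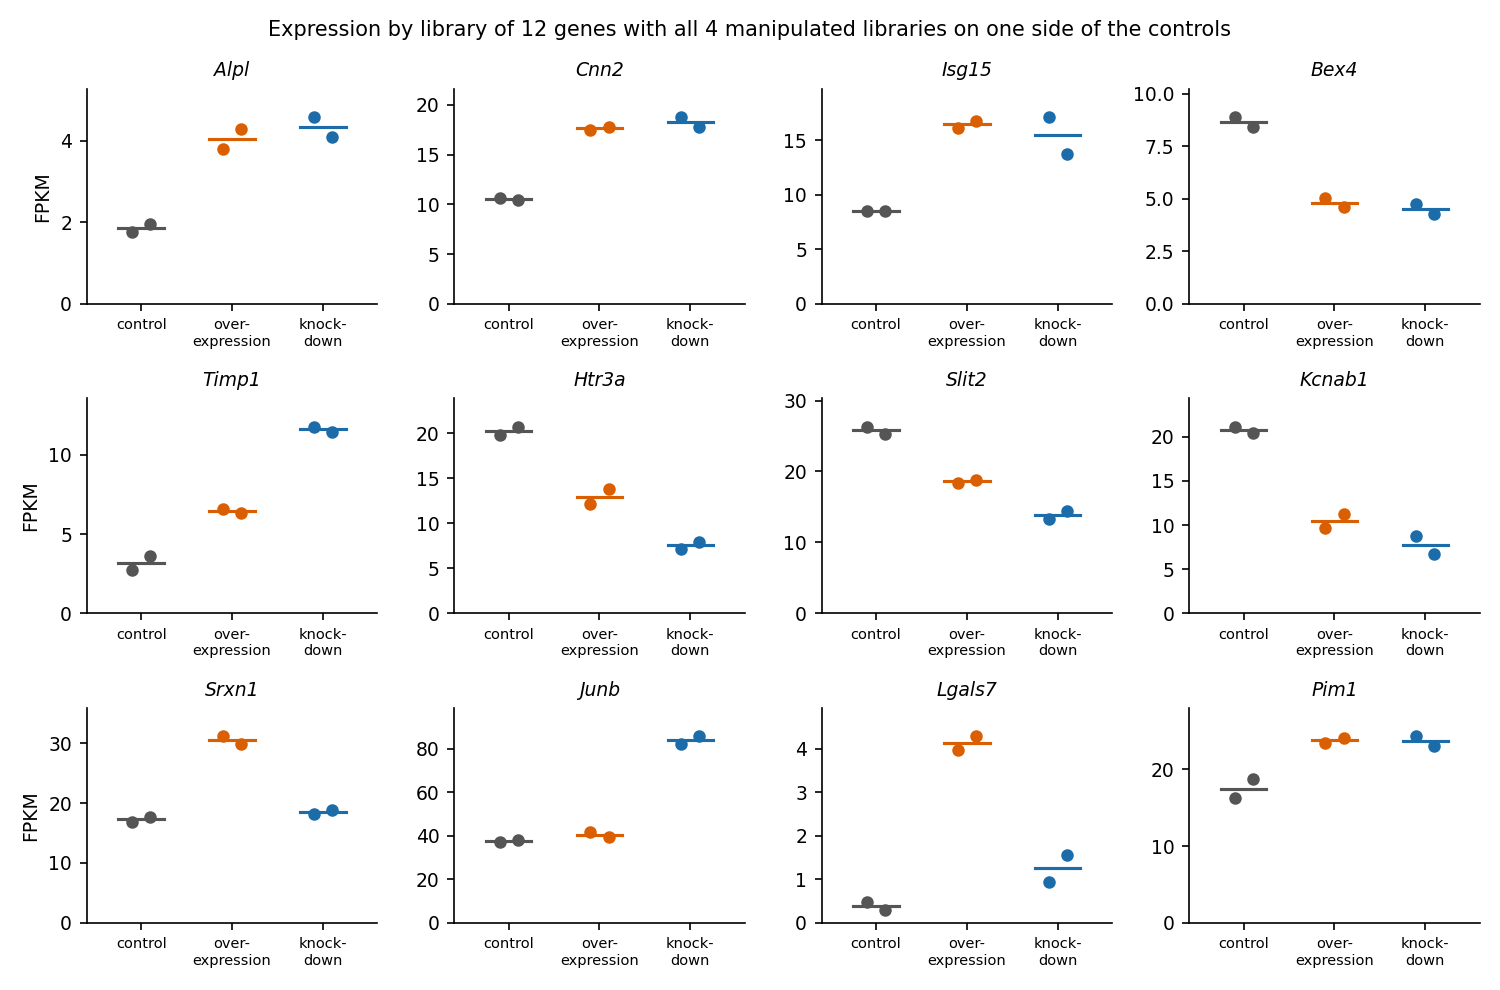
FPKM of 12 shared genes in each library, with points for libraries, bars for the mean of the 2 libraries of a group, and a y axis from 0. Alpl, Cnn2, Isg15, Bex4 and Pim1 reached like levels in both manipulated groups, and Timp1, Htr3a and Slit2 moved further under knockdown. Srxn1 and Junb moved mainly in 1 group, and Lgals7 rose in both groups, further under overexpression.

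Pim1 was among the shared genes. It read 16.2 and 18.8 FPKM in control, 23.5 and 24.1 under overexpression and 24.4 and 23.1 under knockdown, so that the lowest manipulated library was above the higher control and the manipulated groups overlapped. The average change was 0.42 ± 0.06 (limma, adjusted p = 0.00278), with 0.43 ± 0.07 under overexpression and 0.42 ± 0.07 under knockdown, and a difference of 0.00 ± 0.07 between them (adjusted p = 0.977). Pim1 spans 29490753 to 29496112 on the plus strand of chromosome 17 (GRCm38), and exons of the antisense gene Gm26885 overlap it. The related kinase genes Pim2 and Pim3 did not meet the rule. Pim2 read 12.1 and 10.2 FPKM in control, 10.3 and 9.89 under overexpression and 13.8 and 12.1 under knockdown and Pim3 read 32.5 and 30.2 FPKM in control, 30.04 and 30.9 under overexpression and 35.4 and 30.5 under knockdown, both overlapping the controls (limma, adjusted p = 0.721 and 0.894). Of 17 tested Pim kinases and genes near Pim1, 1 was called higher, Pim1 itself, and 4 lower, beside 8.61% and 18.1% of all tested genes, with a median of -0.07. The 4 lower calls became 2 after quantile normalization, 1 without control 1 and 1 without control 2. The mitochondrial outer membrane protein gene Mtch1, on the minus strand from 29332072 to 29347934, read 52.7 and 52.1 FPKM in control, 44.7 and 45.9 under overexpression and 46.6 and 45.9 under knockdown with changes of -0.21 ± 0.05 under overexpression (limma, adjusted p = 0.0677) and -0.18 ± 0.05 under knockdown (0.0126). Its call in the average of both groups was lost after quantile normalization and without either control. Srsf3, which encodes a splicing factor, read 118 and 120.2 FPKM in control, 115 and 114 under overexpression and 72.2 and 83.2 under knockdown, so that its fall was mostly in the knockdown libraries (adjusted p = 6.15e-04 between the groups).

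Gene lists were described by how many of their tested members were called in the average of both groups and how many had all 4 manipulated libraries on the same side of both controls, beside the 8.61% called higher and 18.1% called lower, the 10.6% above and 18.8% below and the median of -0.04 over all tested genes. The lists were chosen with earlier results of these data known, so a count apart from these shares describes a list and tests nothing. Of 24 tested interferon-induced genes, 14 were called higher and 0 lower, and 10 had all 4 libraries above and 0 below. Their median was 0.24, with 0.16 under overexpression and 0.36 under knockdown. Besides Isg15 and Cxcl10, Oasl2, an oligoadenylate synthetase-like antiviral gene, read 1.95 and 2.14 FPKM in control, 2.87 and 2.82 under overexpression and 5.36 and 4.18 under knockdown, and its rise was larger under knockdown (limma, adjusted p = 0.00312 between the groups). Lgals3bp, which encodes a secreted galectin-binding glycoprotein, read 32.2 and 36.5 FPKM in control, 43.1 and 42.1 under overexpression and 49.2 and 42.9 under knockdown. Fewer interferon-induced genes were called higher with either control left out, and their median was 0.22 without control 1 and 0.27 without control 2. Leaving out either control lowered the calls over all tested genes as well. Fewer calls in a list at that setting are therefore not particular to the list.

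Of 14 tested sensors of foreign RNA and DNA and their partners, 4 were called higher and 0 lower, and 4 had all 4 libraries above the controls. Ddx58, the gene of the cytosolic RNA sensor RIG-I, read 2.34 and 2.64 FPKM in control, 3.36 and 3.03 under overexpression and 4.20 and 3.11 under knockdown, Zc3hav1, the zinc-finger antiviral protein gene, read 12.5 and 12.9 FPKM in control, 16.2 and 14.2 under overexpression and 15.6 and 16.4 under knockdown, and Trex1, a cytosolic DNA exonuclease gene, read 3.09 and 3.07 FPKM in control, 3.81 and 3.68 under overexpression and 4.69 and 4.20 under knockdown. None of these 3 was called under overexpression (limma, adjusted p = 0.287, 0.14 and 0.191). The calls of this list were fewer with either control or knockdown 1 left out, as were the higher calls of all tested genes. The list's median was 0.11 with all libraries, 0.13 without control 1, 0.10 without control 2 and 0.08 without knockdown 1. Of 18 genes of MHC class I presentation, 2 were called higher and 3 lower, with a median of 0.00113, and the counts were 1 and 0 without either control and 6 and 1 after quantile normalization. Tapbp, which encodes the peptide-loading chaperone tapasin, read 38.2 and 39.99 FPKM in control, 45.98 and 47.9 under overexpression and 49.6 and 44.8 under knockdown.

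Of 22 tested genes of NF-kB signalling and inflammation, 12 were called higher and 0 lower, and 7 had all 4 libraries above and 0 below. The median was 0.27, with 0.19 under overexpression and 0.47 under knockdown. Il6, a cytokine gene, read 5.39 and 6.35 FPKM in control, 8.57 and 7.68 under overexpression and 14.97 and 16.9 under knockdown. The controls were lowest, the overexpression libraries just above them and the knockdown libraries apart from both, with changes of 0.41 ± 0.09 (limma, adjusted p = 0.0665) and 1.30 ± 0.09 (7.81e-05). Cxcl2, a neutrophil-attracting chemokine gene, read 0.368 and 0.592 FPKM in control, 1.46 and 0.770 under overexpression and 4.35 and 5.38 under knockdown, and Tnfaip3, which encodes the feedback inhibitor A20, read 0.803 and 0.708 FPKM in control, 1.20 and 1.14 under overexpression and 1.49 and 1.73 under knockdown. Cxcl2 and Tnfaip3 read under 1 FPKM in both controls and passed the filter through the manipulated libraries. The choice of tested rows therefore favoured their calls. Under knockdown alone 12 of the 22 list members were called higher and 4 lower, beside 1590 and 3358 of the 10721 tested genes. Under overexpression alone 0 were called higher and 0 lower, beside 74 and 91. The 12 calls in the average of both groups became 7 without control 1 and 8 without control 2.

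Of 42 tested immediate early genes, 28 were called higher and 1 lower, and 17 had all 4 libraries above and 2 below. Their median was 0.30, made up of 0.10 under overexpression and 0.56 under knockdown. Under overexpression alone 0 were called higher and 0 lower, beside 74 and 91 of all tested genes. Under knockdown alone 35 were called higher and 1 lower, beside 1590 and 3358. Junb, which encodes a subunit of AP-1, read 36.99 and 38.2 FPKM in control, 41.6 and 39.4 under overexpression and 81.9 and 85.8 under knockdown. Its overexpression libraries stood just above the controls, by 0.10 ± 0.05 (limma, adjusted p = 0.351), and its knockdown libraries by 1.14 ± 0.05 (2.42e-05), and exons of Prdx2 overlap it on the opposite strand. Per1, a clock gene, read 1.92 and 1.86 FPKM in control, 2.31 and 2.26 under overexpression and 5.67 and 5.92 under knockdown, Gadd45b, a stress-response gene, read 5.03 and 4.65 FPKM in control, 5.27 and 6.11 under overexpression and 12.5 and 11.2 under knockdown, and Phlda1 read 30.9 and 37.8 FPKM in control, 46.05 and 43.1 under overexpression and 75.8 and 78.3 under knockdown. In all 4 the groups differed (limma, adjusted p = 4.86e-05, 1.29e-04, 2.99e-04 and 4.91e-04). The count called higher was 10 without control 1 and 22 without control 2.

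In lists of neuronal genes more members lay below the controls than above. Of 33 tested synapse genes, 2 were called higher and 14 lower, and 0 had all 4 libraries above and 15 below. Their medians were -0.11 under overexpression and -0.17 under knockdown. Sv2c, a synaptic vesicle glycoprotein gene, read 65.1 and 65.5 FPKM in control, 51.2 and 50.5 under overexpression and 42.3 and 41.6 under knockdown, with changes of -0.35 ± 0.04 and -0.63 ± 0.04 (limma, adjusted p = 0.0109 and 8.31e-05). Cplx2, which encodes complexin 2, a regulator of vesicle fusion, read 17.4 and 17.4 FPKM in control, 13.7 and 15.4 under overexpression and 8.13 and 8.80 under knockdown, and Syn1, the synapsin 1 gene, read 19.8 and 18.4 FPKM in control, 16.5 and 16.2 under overexpression and 11.9 and 12.4 under knockdown. Both were ordered control, overexpression, knockdown without overlap, and only their knockdown change was called (limma, adjusted p under overexpression = 0.121 and 0.121). The list's count of lower calls was 9 without control 1 and 9 without control 2.

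Of 51 tested neurite growth and cytoskeleton genes, 3 were called higher and 22 lower, and 5 had all 4 libraries above and 20 below. Tubb3, the neuronal beta-tubulin gene, read 397 and 388 FPKM in control, 313 and 337 under overexpression and 246 and 253 under knockdown, with a log2 fold change of -0.27 ± 0.05 under overexpression (limma, adjusted p = 0.047) and -0.65 ± 0.05 under knockdown (1.19e-04). Nrn1, which encodes neuritin, a promoter of neurite outgrowth, read 30.7 and 27.5 FPKM in control, 19.8 and 21.9 under overexpression and 12.3 and 14.4 under knockdown (changes of -0.46 ± 0.08 and -1.07 ± 0.08). Npy, given above, and Atf3, an injury-induced transcription factor gene at 15.4 and 19.2 FPKM in control, 24.6 and 20.8 under overexpression and 28.4 and 30.9 under knockdown, were among the 3 called higher. The count of lower calls was 13 after quantile normalization, 15 after median scaling, 11 without control 1 and 12 without control 2.

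Of 26 tested axon guidance genes, 4 were called higher and 10 lower, with 3 above and 10 below in all 4 libraries. The 10 lower calls became 6 without control 1. Slit2, a repulsive cue, read 26.3 and 25.2 FPKM in control, 18.4 and 18.8 under overexpression and 13.3 and 14.4 under knockdown, without overlap between the 3 groups, with changes of -0.45 ± 0.06 and -0.85 ± 0.06 (limma, adjusted p = 0.0109 and 7.25e-05). The guidance receptor genes Unc5c and Plxna4 and the ephrin gene Efna5 fell under knockdown, with changes of -0.81 ± 0.07, -0.71 ± 0.07 and -0.77 ± 0.06. Under overexpression these 3 changed by -0.17 ± 0.07, -0.24 ± 0.07 and -0.17 ± 0.06, none of them called (limma, adjusted p = 0.288, 0.121 and 0.21). Of 33 ion channel and receptor genes, 1 was called higher and 9 lower, Kcnab1 and Htr3a among them. Those 9 became 3 without control 1, 3 without control 2, 4 without knockdown 1 and 5 after median scaling, without overexpression 1 or with the replicate block. Chrna3, a subunit gene of the ganglionic nicotinic receptor, read 48.8 and 45.2 FPKM in control, 34.8 and 38.2 under overexpression and 22.8 and 22.8 under knockdown, again with overexpression between control and knockdown.

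Of 18 tested genes of sympathetic identity, 2 were called higher and 6 lower, with 1 above and 7 below in all 4 libraries. The 6 lower calls became 3 without control 1. Isl1, a LIM homeobox gene of sympathetic and motor neurons, read 16.1 and 14.8 FPKM in control, 9.21 and 11.1 under overexpression and 11.6 and 10.9 under knockdown and fell in both groups (-0.56 ± 0.09 and -0.42 ± 0.09, limma, adjusted p = 0.225 between the groups). Chga, the gene of the secretory granule protein chromogranin A, read 69.02 and 69.9 FPKM in control, 58.03 and 61.4 under overexpression and 53.6 and 53 under knockdown. Th went the other way and read 4.99 and 4.67 FPKM in control, 5.67 and 7.24 under overexpression and 11.9 and 9.32 under knockdown, called under knockdown (limma, adjusted p = 4.97e-04) and not under overexpression (0.205).

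Among genes of cell division, too, more members lay below the controls than above. Of 68 tested mitosis genes, 0 were called higher and 35 lower, and 2 had all 4 libraries above and 30 below. Their median was -0.05 under overexpression and -0.27 under knockdown. Ccnb1, the cyclin B1 gene, read 186 and 186 FPKM in control, 160.3 and 161 under overexpression and 123 and 125 under knockdown, Plk1, a mitotic kinase gene, read 37.3 and 38.7 FPKM in control, 34.1 and 35.4 under overexpression and 24.3 and 22.5 under knockdown, and Kif11, a spindle motor gene, read 32.2 and 31.3 FPKM in control, 27.4 and 27.5 under overexpression and 22.7 and 22.5 under knockdown. Under overexpression their changes were -0.21 ± 0.04, -0.13 ± 0.06 and -0.20 ± 0.05, none called (limma, adjusted p = 0.0576, 0.289 and 0.0817). The 35 lower calls became 28 after median scaling, 20 after quantile normalization, 14 without control 1 and 18 without control 2.

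Of 59 tested S phase genes, 0 were called higher and 20 lower, and 1 had all 4 libraries above and 30 below. Mcm5, a subunit gene of the replicative helicase, read 48.8 and 47.3 FPKM in control, 44.3 and 42.9 under overexpression and 39.9 and 37.4 under knockdown, Rpa1, the gene of a single-stranded DNA binding protein, read 43.9 and 43.9 FPKM in control, 40.2 and 41.5 under overexpression and 34.8 and 34.8 under knockdown, and Dut, which encodes dUTPase, read 60.9 and 61.3 FPKM in control, 56.9 and 59.7 under overexpression and 43.9 and 48.1 under knockdown. The 20 calls did not hold under every setting: there were 10 after median scaling, 4 lower and 1 higher after quantile normalization, and 1 without either control.

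Lists of housekeeping genes had more members called lower than higher on the deposited scale, as did all tested genes, at 18.1% and 8.61%. These counts moved with the scaling, as the values after quantile normalization in brackets show, and with the controls. Of 34 proteasome genes, 0 were called higher and 18 lower (2 and 3 after quantile normalization). Of 54 splicing genes, 3 were higher and 23 lower (4 and 6), of 70 oxidative phosphorylation genes 0 and 20 (3 and 9), and of 29 heat shock genes 0 and 9 (2 and 2). Of 59 ribosome biogenesis genes, 0 were called higher and 17 lower (3 and 7). Of 74 cytosolic ribosomal protein genes, 2 were higher and 4 lower, and after quantile normalization 13 and 2, with a median of 0.02 in place of -0.06. Without control 1 the lower calls were 4 for the proteasome, 6 for splicing, 6 for oxidative phosphorylation, 2 for heat shock, 5 for ribosome biogenesis and 0 for ribosomal proteins. Without control 2 they were 6, 10, 5, 1, 3 and 2 in the same order. Without overexpression 2 the ribosomal protein list had 13 lower calls. Under overexpression the medians of these 6 lists lay between -0.02 and 0.02. Sdha, a complex II subunit gene, read 102 and 103 FPKM in control, 84.8 and 86.6 under overexpression and 89.7 and 83.5 under knockdown, with changes of -0.26 ± 0.05 and -0.24 ± 0.05 in the 2 groups. Hnrnpa0, an RNA-binding protein gene, read 182 and 178 FPKM in control, 151 and 159.7 under overexpression and 102 and 108 under knockdown and Psmc2, a proteasome ATPase gene, read 102 and 103 FPKM in control, 93.3 and 96.1 under overexpression and 74.6 and 75.8 under knockdown, both lower mainly under knockdown (limma, adjusted p = 3.36e-04 and 0.00106 between the groups).

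**Figure D3:**
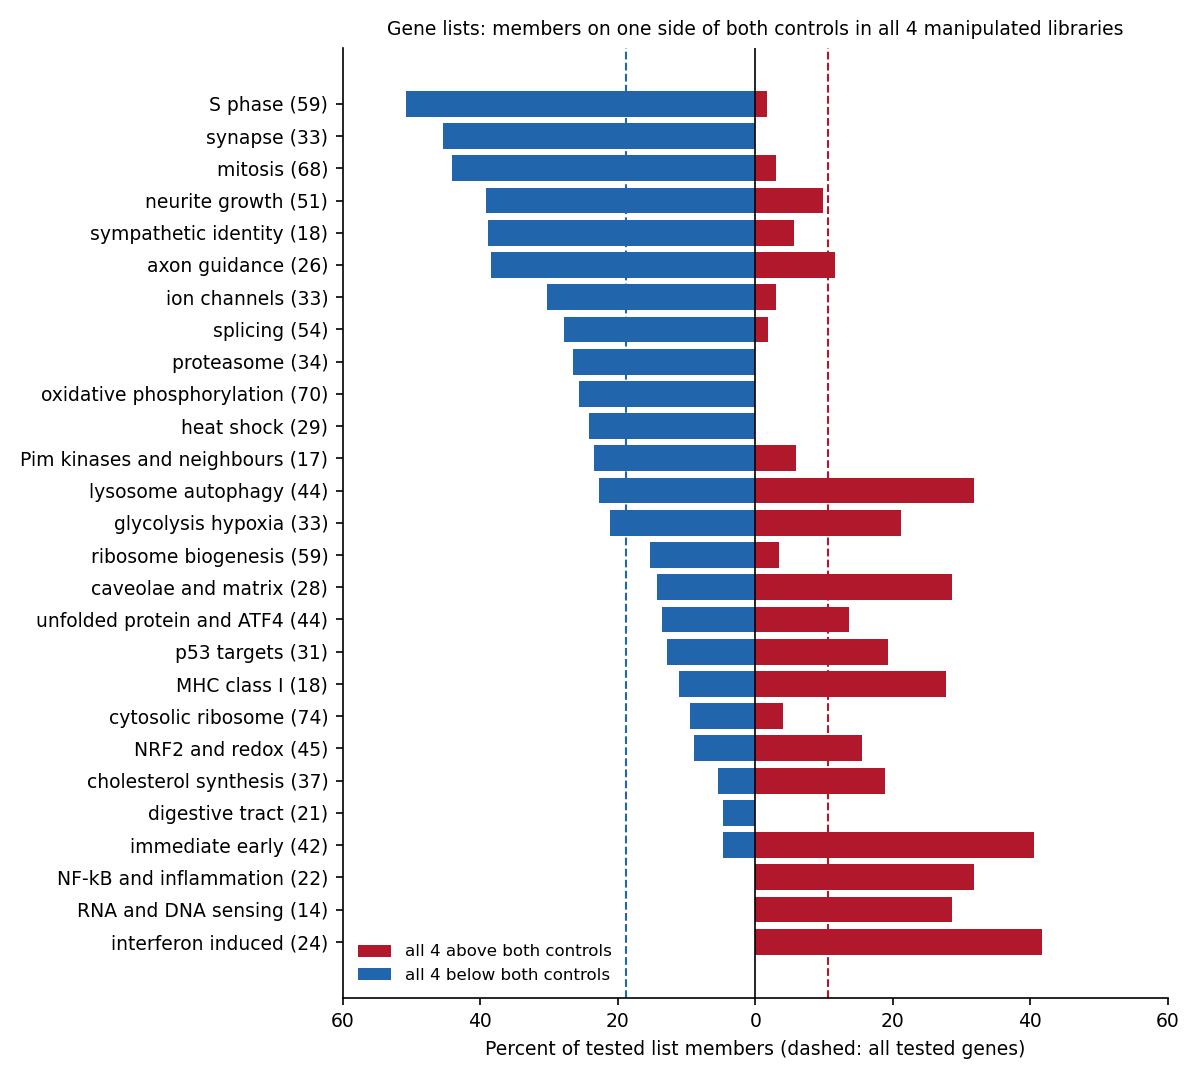
For each gene list with at least 14 tested members, the percent of tested members (number in brackets) with all 4 manipulated libraries above (right) or below (left) both controls. Dashed lines give the same over all tested genes, 10.6% and 18.8%. The lists were chosen with earlier results of these data known. Of the lists plotted, interferon-induced and immediate early genes reach furthest to the right, and S phase, synapse and mitosis genes furthest to the left.

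In other lists, members were called both ways. Of 45 genes of the NRF2 and redox list, 9 were called higher and 7 lower, and its median was 0.16 under overexpression and -0.15 under knockdown. Its counts were 3 and 1 without control 1, 9 and 1 without control 2 and 14 and 3 after quantile normalization. Srxn1, the sulfiredoxin gene, read 16.9 and 17.8 FPKM in control, 31.2 and 29.9 under overexpression and 18.2 and 18.8 under knockdown. Its knockdown libraries were above both controls by 0.09 ± 0.05 only (limma, adjusted p = 0.196), while the overexpression libraries rose by 0.78 ± 0.05 (0.00112). Nfe2l2, which encodes NRF2 itself, read 18.03 and 19.2 FPKM in control, 23.3 and 22.04 under overexpression and 23.6 and 22.9 under knockdown, with like changes of 0.27 ± 0.06 and 0.30 ± 0.06. Of 28 genes of caveolae and matrix, 11 were called higher and 4 lower, and the 11 became 5 without control 1, 6 without control 2 and 7 without knockdown 1. Besides Timp1 and Fkbp10, the laminin chain gene Lama5 read 2.49 and 2.56 FPKM in control, 3.97 and 3.41 under overexpression and 7.10 and 6.36 under knockdown, and Sdpr, which encodes the caveolar coat protein cavin-2, fell and read 42.4 and 42.9 FPKM in control, 30.95 and 33.97 under overexpression and 28.5 and 28.2 under knockdown.

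Of 44 lysosome and autophagy genes, 12 were called higher and 4 lower, and 14 had all 4 libraries above and 10 below. These counts were 3 higher and 1 lower without control 1, 8 and 0 without control 2, and 18 and 0 after quantile normalization. Neu1, a lysosomal sialidase gene, read 3.83 and 4.20 FPKM in control, 5.21 and 5.52 under overexpression and 6.72 and 5.84 under knockdown, and Ctsz, a cathepsin gene, read 59.04 and 60.9 FPKM in control, 67.5 and 71.2 under overexpression and 86.5 and 82.4 under knockdown. Of 31 p53 targets, 8 were called higher and 4 lower, with 2 and 2 without control 1, 5 and 2 without control 2 and 4 and 3 without overexpression 1. Gdf15, a stress-induced cytokine gene, read 17.1 and 20.5 FPKM in control, 27.3 and 28.3 under overexpression and 46.8 and 37.4 under knockdown, while Trp53i11 fell most under overexpression and read 22.3 and 22.4 FPKM in control, 12.7 and 14.4 under overexpression and 19.6 and 17.8 under knockdown. Of 33 glycolysis and hypoxia genes, 10 were higher and 7 lower, with Slc2a1, the glucose transporter gene, at 11.3 and 12.7 FPKM in control, 15.3 and 14.4 under overexpression and 18.03 and 16.7 under knockdown, and Vegfa, an angiogenic growth factor gene, at 27 and 30.2 FPKM in control, 33.4 and 30.96 under overexpression and 44.3 and 44.3 under knockdown. Without control 1 the counts were 5 and 1, and without control 2 they were 9 and 1. Of 44 unfolded protein and ATF4 genes, 10 were higher and 6 lower, which became 2 and 1 without control 1, 6 and 0 without control 2 and 14 and 0 after quantile normalization. Ddit3, which encodes the transcription factor CHOP, read 21.9 and 24.8 FPKM in control, 26.2 and 26.1 under overexpression and 36.5 and 36.6 under knockdown. Of 37 cholesterol synthesis genes, 4 were higher and 5 lower, with Lss, the lanosterol synthase gene, at 13.7 and 12.7 FPKM in control, 16.5 and 16.4 under overexpression and 24.1 and 19.97 under knockdown. Without control 1 or without control 2 the counts were 1 and 1, and without knockdown 2 they were 11 and 2.

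Markers of other cell types were few among the tested genes. Of macrophage markers 3 were tested, of fibroblast and astrocyte markers 4 each, of endothelial markers 4, of oligodendrocyte markers 2 and of erythroid markers 1. Over 22 macrophage genes the summed level was 10.8 and 9.54 FPKM in control, 8.62 and 8.06 under overexpression and 12.5 and 12.8 under knockdown. The defining leukocyte gene Ptprc was at most 0.0188 FPKM and Csf1r at most 0.0224. Lyz2, a lysozyme gene, fell in both groups and read 6.96 and 6.39 FPKM in control, 4.48 and 4.22 under overexpression and 5.10 and 4.60 under knockdown. Cd68, a lysosomal membrane protein gene, read 0.348 and 0.397 FPKM in control, 0.528 and 0.570 under overexpression and 3.31 and 4.31 under knockdown. Cd68 passed the filter only through its knockdown libraries, so the choice of tested rows favoured its rise there. Over 18 fibroblast genes the sum was 81.1 and 82.5 in control, 69.1 and 77.3 under overexpression and 86.7 and 77.4 under knockdown, with Col1a1 at 0.0499 to 0.234 FPKM. Over 12 endothelial genes it was 30.3 and 30.8, then 28.8 and 32.7, then 44.2 and 37.4. Over 12 astrocyte genes it was 35.3 and 34.4, then 31.0 and 31.8, then 39.2 and 35.0, with Gfap at most 0.0655. Over 13 oligodendrocyte genes it was 7.82 and 8.46, then 7.10 and 7.85, then 10.2 and 8.36, with Olig1 listed at 0 in every library. Other members of these lists were thus expressed. In the average of both groups, 2 of 4 astrocyte markers were called higher and 0 lower. These counts were 1 and 0 of 4 endothelial and 0 and 1 of 4 fibroblast markers, beside 8.61% and 18.1% of all tested genes.

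How alike the groups were was read from the difference between overexpression and knockdown. Of the 1132 genes above both controls, 317 (28.0%) were called between the groups, and of the 2018 below, 909 (45.0%) were. Over all tested genes the share was 40.5%. Of the 620 above and called, 301 (48.5%) were also called between the groups, and of the 1351 below and called, 876 (64.8%) were. The call that picked these subsets uses the same knockdown libraries and error, so their larger shares are no separate evidence. A difference that was not called does not show that sizes were equal. Alpl, Cnn2, Isg15, Bex4, Pim1, Tagln3, Isl1 and Lyz2 are among those not called, with differences of -0.08 ± 0.09, -0.05 ± 0.05, 0.09 ± 0.09, 0.08 ± 0.08, 0.00 ± 0.07, 0.04 ± 0.08, -0.14 ± 0.09 and -0.13 ± 0.08.

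**Figure D4:**
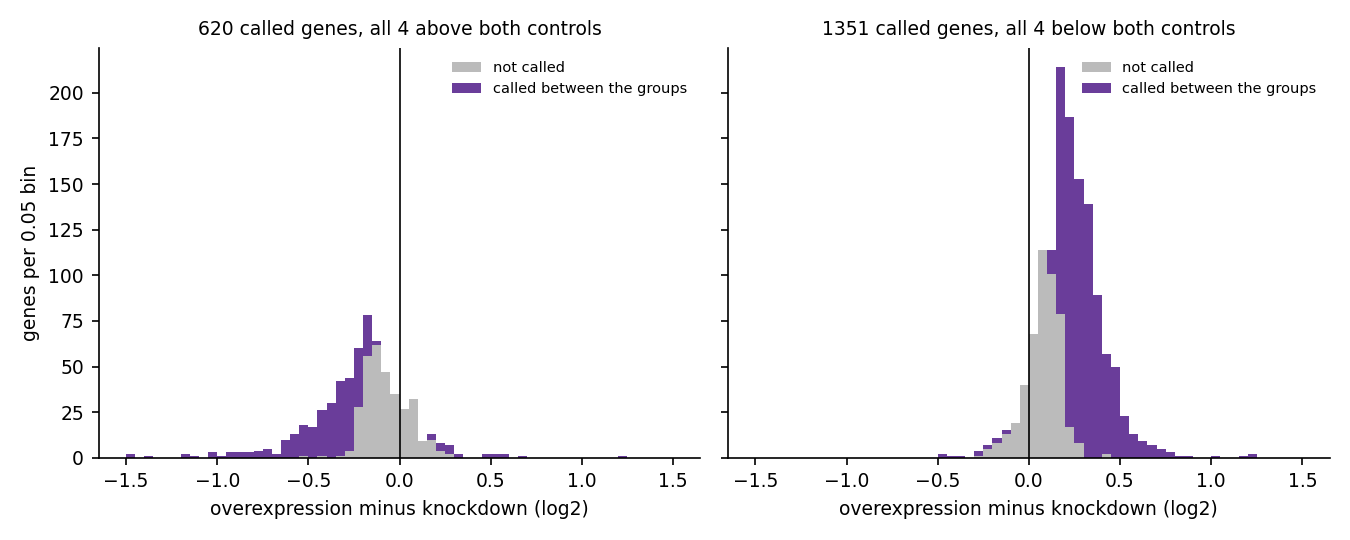
Counts of shared genes that were called, by the log2 difference overexpression minus knockdown (bins of 0.05), for the 620 above (left) and the 1351 below (right) the controls, with purple for genes called between the groups. Genes above lie mostly to the left of 0 and genes below mostly to the right, which means that knockdown lay further from control in both directions.

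Shared genes differed from the rest in expression level. The median of mean FPKM was 6.42 for genes above, 15.6 for genes below and 9.41 over all tested genes. Over 4 bins of equal size from the lowest to the highest mean FPKM, the share below both controls was 11.2%, 14.4%, 21.2% and 28.5%, and the share above 14.7%, 12.2%, 9.03% and 6.34%. Median transcript length was 3470 bases above, 3526 below and 3427 over all. Median GC content was 51.5% above, 49.1% below and 49.9% over all, and the share above rose from 8.46% in the lowest of 4 GC bins to 13.9% in the highest. The GC values were matched for 96.9% of tested genes. The part of level and base composition in the shared changes was not tested.

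**Figure D5:**
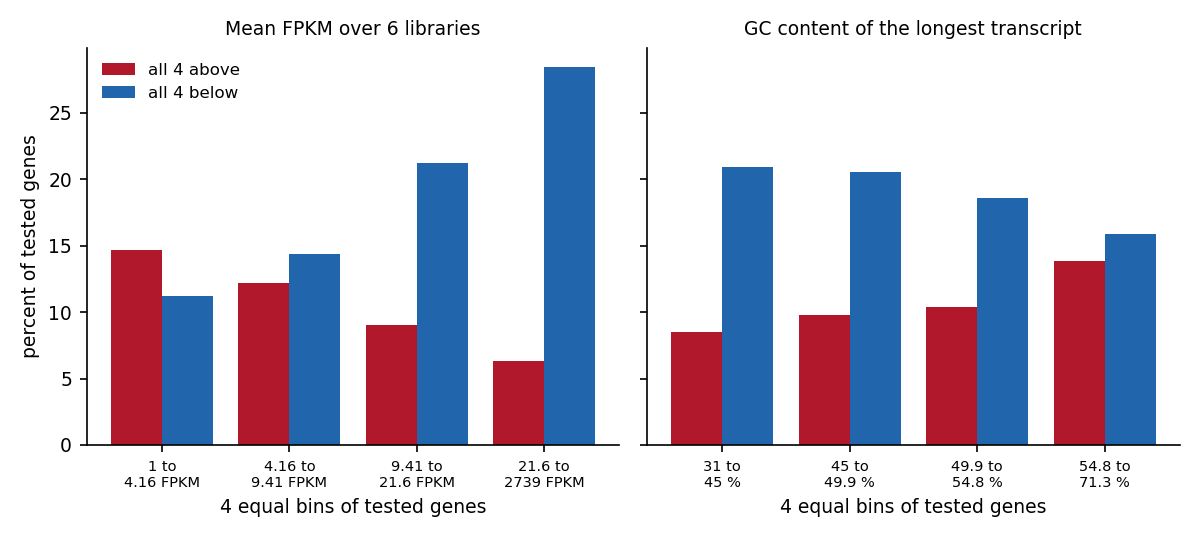
Percent of tested genes with all 4 manipulated libraries above (red) or below (blue) both controls, by 4 equal bins of mean FPKM (left) and of transcript GC content (right), with each bin's range under its bars. The share below rises from 11.2% to 28.5% with expression, while the share above falls from 14.7% to 6.34%.

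Promoter windows were in the RefSeq table for 8348 of the tested genes, 10674 windows in all. The AP-1 motif TGANTCA, searched on both strands, was in 7.46% of windows of genes above and called and in 4.09% of those below and called, beside 4.82% of windows of all tested genes and 7.81% of all 32851 windows in the table. The interferon response motif GAAANNGAA was in 7.13% and 5.93%, beside 6.63% and 8.56%. The antioxidant response core TGACNNNGC was in 16.4% and 14.8%, beside 14.5% and 12.4%, and it can overlap an AP-1 match. The E-box CACGTG was in 9.56% and 9.95%, beside 10.1% and 7.15%, the cyclic AMP response motif TGACGTCA in 2.43% and 2.19%, beside 3.34% and 1.79%, and the NF-kB motif GGGANTTTC in 0.810% and 0.282%, beside 0.890% and 1.11%. These shares are descriptions of the letters in the windows.

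At the edge of the rule, Uchl1, an abundant neuronal ubiquitin hydrolase gene, was just inside above the controls and read 524 and 538 FPKM in control, 538 and 566 under overexpression and 547 and 543 under knockdown. Tnpo1, a nuclear import receptor gene, was just inside below and read 72.8 and 71.7 FPKM in control, 71.7 and 67.1 under overexpression and 58.2 and 67.8 under knockdown. Just outside were the kinesin gene Kif24, at 2.10 and 2.14 FPKM in control, 2.16 and 2.14 under overexpression and 2.81 and 2.30 under knockdown, and Tm7sf3, at 18.3 and 18.6 FPKM in control, 17.9 and 18.3 under overexpression and 18.1 and 16.8 under knockdown. None of the 4 was called in the average of both groups on the deposited scale with all libraries. Uchl1 was called after quantile normalization (0.19, limma, adjusted p = 0.00439) and Tnpo1 without knockdown 2 (-0.18, adjusted p = 0.0295).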

How the data were processed

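The 6 Neuro-2a libraries, 3 groups of 2 by the labels, came from total RNA with a stranded mRNA kit, per the labels. The authors deposited an FPKM table with a row per symbol. The submitters' processing notes name HISAT2, Cufflinks, HTSeq, Trimmomatic and DESeq, with build mm10. Tool versions, the gene models and whether strand was used were not stated. FPKM is relative to the library total, so a change in abundant genes shifts all other values. The table held 21878 rows, 27 of them with a date as symbol.

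Absolute depth is unknown, so no counting intervals can be given. Between 37.9% and 54.0% of low values lay within 0.03 (log2) of a whole-number ratio to control 1, too few to recover reads, and gave relative depths of 0.883 to 1.08.

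Rows with a mean of at least 1 FPKM (10721, of which 19 date rows) were transformed as log2(FPKM + 1) and modelled in R 4.3.3 using limma 3.58.1, with a mean per group, 3 residual degrees of freedom and empirical Bayes moderation with an expression trend. The 4 contrasts were the average of both manipulated groups minus control, each group minus control, and overexpression minus knockdown. Calls have a Benjamini-Hochberg adjusted p under 0.05 over all tested rows, from limma throughout. Same-numbered libraries did not deviate together (r of -0.117, 0.007 and -0.211 over genes), so numbers were not taken as pairs.

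The members and the 34 gene lists were chosen with earlier results of these data known. Named genes were the 15 in each direction with the largest smaller change, predicted models left out, up to 4 per list by smallest p, the Pim kinases and the rows at the edge of the rule, 133 in all. Coordinates, length and GC content are from GENCODE M21 (GRCm38) and matched 131 of these 133. In 33 an exon of an opposite-strand gene overlaps, and only some of these overlaps are named beside the values. Among those not named there are Nrn1 (with Fars2), Syn1 (Araf), Ctsz (Nelfcd) and Ddit3 (Mars). Of 44 long noncoding RNAs listed, 1 was in the table and 0 were tested. Alternatives were other pseudocounts, filters, scalings and moderation, the replicate block, 1 manipulated group, and each library left out. Some of the named genes are not reported here.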

Additional observations from a re-analysis of the deposited data

How the results depend on the processing

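Of 127 named genes that were called, those still called with the same sign numbered 126 of 127 with a pseudocount of 0.1 or 0.5, 127 with robust moderation, 121 without the expression trend, 121 after median log ratio scaling, 110 after quantile normalization, 112 without a filter and 98 of 98 at a filter of 5 FPKM. They numbered 83 of 124 without control 1, 95 of 125 without control 2, and 118 to 123 of 127 without any 1 of the other libraries. With all manipulated libraries as 1 group, 4 were kept and 2 genes were called higher and 2 lower in all. Leaving out a control leaves a single library in its group, assumed to vary like the others. At a filter of 5 FPKM, 588 were called higher and 671 lay above both controls. After quantile normalization 1130 were called lower. The calls under overexpression became 9 without a filter, 97 without the trend and 66 with the replicate block. With the replicate block the average of both groups was called higher for 691 and lower for 1489. The library numbers pair nothing by the labels.

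With each library left out in turn, genes called higher ranged from 242 to 834 and lower from 560 to 1808, genes above both controls from 1325 to 2196 and below from 2122 to 3106, calls under overexpression from 13 to 176, under knockdown from 3366 to 4845, and shared genes called between the groups from 902 to 1644. The lowest counts for the average of both groups and for overexpression came without control 1. Directions reversed for Pim2 (-0.072 without control 2 and -0.0032 without knockdown 1, 0.16 without control 1, the highest with a library left out), Pim3 (-0.038 and -0.039 without the same libraries, 0.066 without knockdown 2, the highest with a library left out) and Tm7sf3 (0.012 after quantile normalization), none of them called. The causes were not tested. Absolute depth is unknown, so what it limits cannot be given.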

Other observations

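Of 11157 rows under a mean of 1 FPKM, which entered no test, 46 were listed at 0 in both control libraries and above 0 in all 4 manipulated libraries, and 40 were above 0 in both controls and listed at 0 in all 4. The highest of the first kind was Hist4h4, a histone H4 gene with near-identical copies, with 0.400 and 0.230 FPKM in the overexpression libraries and 1.84 and 1.69 in the knockdown libraries. Hist1h4b, another histone H4 gene, stood at 0.389 and 0.462 under overexpression and 0.621 and 0.179 under knockdown, and Hist1h3a, a histone H3 gene, at 0.225 and 0.263, then 0.230 and 0.618. The phosphatase gene Dusp22 stood at 0.496 and 0.311 under overexpression and 0.118 and 0.0322 under knockdown. Of the second kind, Pln, which encodes the calcium pump regulator phospholamban, read 0.122 and 0.166 FPKM in control, and Pmch, the gene of the hypothalamic peptide melanin-concentrating hormone, at 0.185 and 0.0639. The genes were picked after their values were seen, and no fold is given against a group listed at 0.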
